A study of Mus musculus with 14 samples.

Results

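ATP-binding cassette (ABC) transporters are membrane proteins that bind and split ATP to move sterols, bile salts, drug conjugates, fatty acids, peptides or metals across a membrane. In the intestinal epithelium the best known members push sterols and foreign compounds back into the gut lumen or onward into the blood. Others work inside the cell, in peroxisomes, lysosomes and mitochondria, and members of subfamilies e and f act on the ribosome and move nothing across a membrane. The genes described here were chosen by symbol: Abc, a subfamily letter from a to g, and a number. The deposited tables list 36401 genes, and 50 of them matched: 16 in subfamily a, 10 in b, 10 in c, 4 in d, 1 in e, 3 in f and 6 in g. ABC genes known by another symbol (Cftr, Tap1 and Tap2) are outside that choice.

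The libraries hold RNA of small intestinal epithelium from ileum, cut at 5 to 8 cm from the cecum, and from jejunum, cut at 5 to 8 cm from the pylorus, of C57Bl6 mice labelled male and 6 to 12 weeks old. Each region gave 3 crypt libraries, 2 libraries of cells selected for LGR5 (a Wnt pathway receptor found on stem cells at the crypt base), and 2 of cells sorted as CD44+/CD24lo/CD166+ (named CD166 below). All 14 libraries are labelled as stem cells, no treatment or transgene is named, and the sources used here do not give how LGR5 was detected. They also do not say whether libraries came from separate mice, so p-values measure the spread between these libraries, which may be technical.

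The 14 libraries held 6295828 to 20380369 counts each. Levels are given as CPM, the count of a gene scaled to the same total in each library, here after TMM, a factor that evens out composition. Some libraries stood apart or went against their labels. The library labelled ileum crypt 3 held 25.8 CPM of the ileal bile acid carrier Fabp6, against 2688 and 1987 CPM in ileum crypt 1 and 2 and 25.1 CPM in jejunum crypt 1. Its level of Gata4, which encodes a transcription factor of jejunum, was 233 CPM against 28.04 and 45.4 CPM in ileum crypt 1 and 2, so region results are also given without it. It did not follow jejunum in every marker: Osr2 was at 96.0 CPM in it, 122 and 160.1 CPM in ileum crypt 1 and 2, and 5.39 and 18.8 CPM in jejunum crypt 2 and 3. Jejunum crypt 1 departed from the other jejunum crypt libraries in the same way, with 98.8 CPM of Osr2 and a Fabp6 level above their 1.26 and 1.15 CPM. Pearson r over the tested genes was 0.982 between ileum crypt 3 and jejunum crypt 1. It was 0.959 and 0.939 between ileum crypt 3 and ileum crypt 2 and 1, and 0.982 between jejunum crypt 1 and 3. Ileum crypt 3 and jejunum crypt 1 thus stand on opposite sides of the region comparison in crypt. Against the label male, ileum crypt 1 and jejunum crypt 2 held 1675 and 1310 CPM of Xist, the RNA of the inactive X chromosome in females, with the highest of 4 Y-linked genes at 0 and 0.18 CPM. The other 4 crypt libraries held at most 3.11 CPM of Xist, and the 8 sorted libraries held both Xist (201 to 1361 CPM) and Y-linked transcripts (the highest gene at 4.95 to 35.2 CPM). The same pair of crypt libraries had summed T and intraepithelial lymphocyte markers of 3140 and 11180 CPM, against 103.7 to 910 CPM in the other crypt and 5.04 to 37.0 CPM in the sorted libraries. The crypt libraries were not free of differentiated cells: 9 enterocyte markers summed to 6264 to 43520 CPM there, and to 1245 to 2485 CPM in the sorted libraries. Stem cell markers summed to 1386 to 5422 CPM in crypt and 9366 to 20010 CPM in sorted libraries. The gene for CD166, Alcam, was at 38.4 to 50.3 CPM in the CD166 libraries and 29.5 to 51.1 CPM in crypt, so its RNA did not set the CD166 libraries apart. Over the tested genes, ileum CD166 1 correlated more with ileum LGR5 1 and 2 (Pearson r 0.982 and 0.974) than with ileum CD166 2 (0.963). Its summed Paneth cell markers were at 32120 CPM, against 6952 and 6987 CPM in ileum LGR5.

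Together the 50 ABC genes made up 0.163% to 0.269% of each library's counts. A filter on low counts passed 33 of them, and 17 stayed below it. Abca16 and Abcb5 had no count in any library, and none of the other 15 genes below the filter exceeded 20 counts or 3.60 CPM in a library. Among these low genes were Abcb11, the bile salt export pump of liver, Abcb4, the phosphatidylcholine floppase of liver, and Abcb1b, the close copy of the drug pump gene Abcb1a. Abcb4 had 0.342, 0 and 0 CPM in ileum crypt, 0.0918, 0.180 and 0.218 in jejunum crypt, 0.368 and 0.108 in ileum LGR5, 0.596 and 0.0819 in jejunum LGR5, 0.185 and 0 in ileum CD166, and 0.138 and 0.149 CPM in jejunum CD166. For Abcb1b, in the same order, the levels were 0.570, 0.301 and 0.343 CPM, 0.0918, 0.719 and 0.273 CPM, 0.0919 and 0.538 CPM, 0.119 and 0 CPM, 0.185 and 0 CPM, and 0.0689 and 0.149 CPM. Both genes lay near or under the level that 3 counts give (0.163 to 0.539 CPM by library). Most of subfamily a was of this kind: 5 of 16 genes passed the filter, against 6 of 10 in b, 9 of 10 in c, 5 of 6 in g, and every gene of d, e and f. Of the 33 genes that passed, 6 averaged at least 100 CPM over the 6 groups, 22 lay between 10 and 100 CPM and 5 below 10 CPM.

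Compared per kilobase of exon, the most abundant members were Abcg5 (40.0 CPM per kb), Abcf1 (35.1), Abcd3 (33.3), Abce1 (30.2), Abcf2 (27.8), Abcb1a (26.9) and Abcg8 (24.5 CPM per kb). These 7 genes come from 5 subfamilies: a sterol exporter pair, a drug pump, a peroxisomal carrier and 3 ribosome-associated factors. Exon lengths were taken from a GRCm38 annotation, which is not the one the counts were made with, so the order of neighbours in this list is approximate. The heat map shows genes that separate crypt from sorted libraries and genes whose level moves with single libraries. Other genes, such as Abcc8 and Abcb1a, set some of the sorted groups apart.

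**Figure D1:**
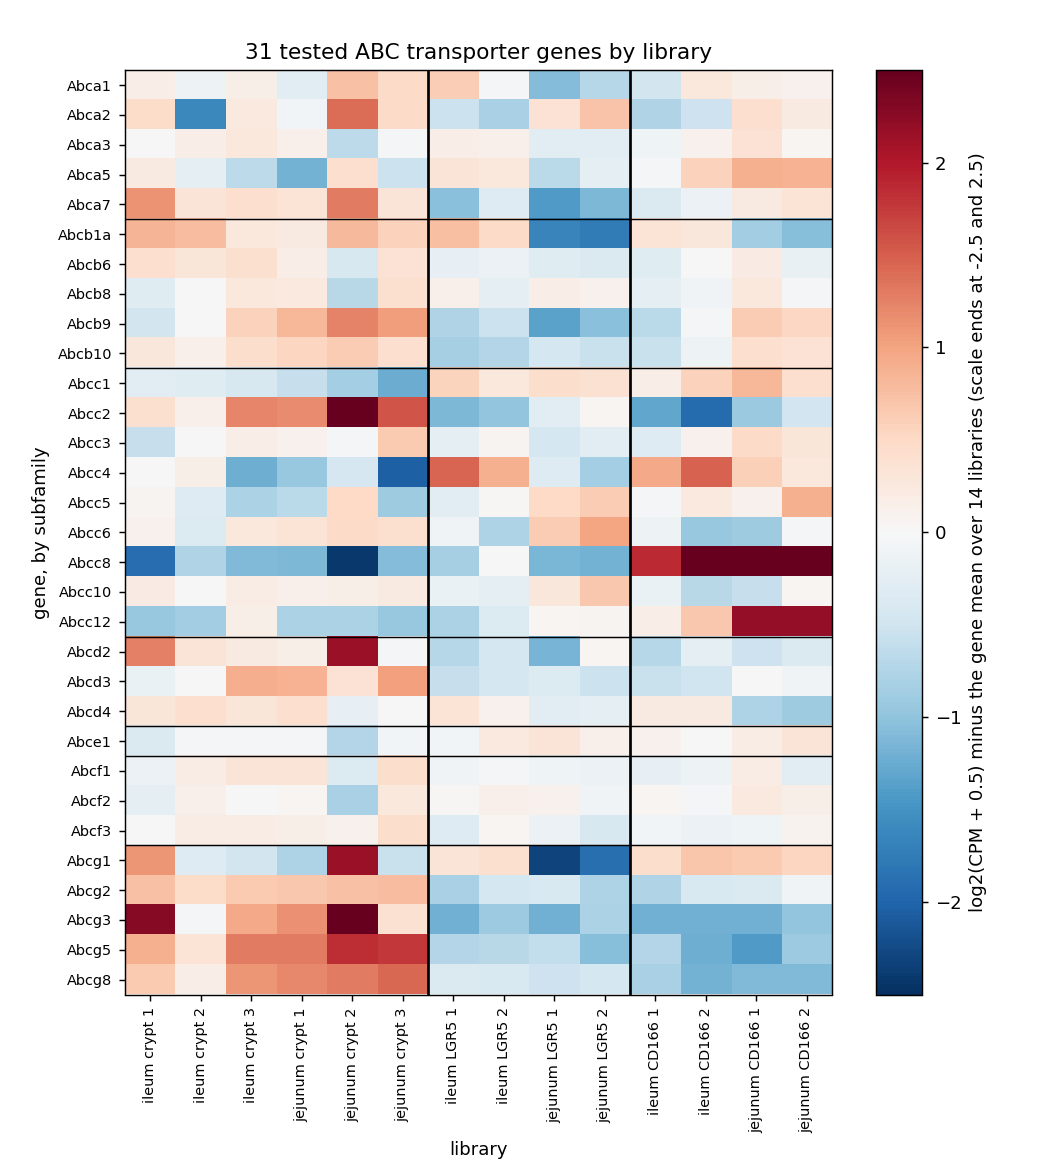
Heat map of 31 of the 33 ABC genes that passed the filter (rows, by subfamily) in 14 libraries (columns), as log2(CPM + 0.5) minus the mean of the gene; the colour scale ends at -2.5 and 2.5. Abcg5, Abcg8 and Abcg2 are red in all 6 crypt columns, Abcc8 is red in the 4 CD166 columns, and Abcb1a is blue in the 4 sorted jejunum columns.

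Comparing ileum with jejunum asks which of these genes differ along the length of the small intestine. Over the 3 populations, 4 of 33 ABC genes differed at an adjusted p under 0.05 in edgeR's quasi-likelihood test, adjusted over all 14750 tested genes. Genes that pass this threshold are named called here. Over all tested genes 5.01% were called in this comparison, and 12.1% of the ABC genes. Abcb1a and Abcd4 were higher in ileum, as 2.99% of all genes were, and Abcc2 and Abcb10 were lower in ileum, as 2.02% were. At an unadjusted p under 0.05 there were 9 ABC genes, and 17.7% of all genes. The median log2 difference was -0.07 over the 33 ABC genes and -0.01 over all genes.

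**Figure D2:**
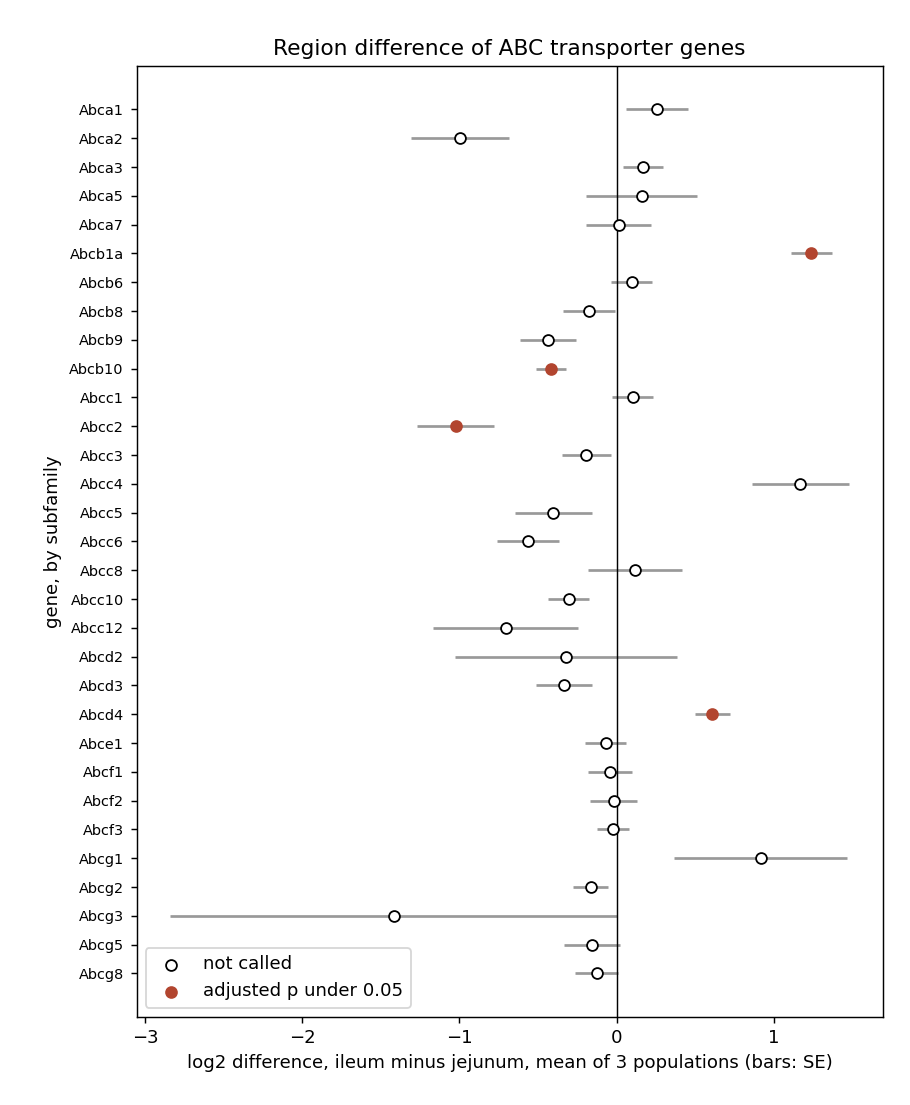
Log2 difference between regions (ileum minus jejunum, averaged over 3 populations) of 31 ABC genes by subfamily; bars are standard errors and filled points have an adjusted p under 0.05. Abcb1a (1.24) and Abcd4 (0.61) lie to the right, Abcc2 (-1.03) and Abcb10 (-0.42) to the left, and Abcc4 (1.17) is open with an adjusted p of 0.0558.

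Abcb1a encodes a P-glycoprotein, an apical pump that returns many drugs and other lipophilic compounds to the gut lumen. In LGR5 cells it was at 224 and 187 CPM in ileum and at 42.1 and 39.6 CPM in jejunum. In CD166 cells the ileum libraries had 170.2 and 162 CPM and the jejunum libraries 72.7 and 63.8 CPM. In crypt the ileum libraries had 239.9, 227 and 161 CPM and the jejunum libraries 156, 233 and 198 CPM. Ileum and jejunum did not overlap in either sorted population, and they overlapped in crypt. The 4 sorted jejunum libraries were the lowest of the 14.

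Over the populations Abcb1a was 2.36-fold higher in ileum (log2 difference 1.24 ± 0.13 SE, 7 against 7 libraries, edgeR adjusted p = 0.00238). Within LGR5 it was 5.04-fold higher (2.33 ± 0.25, adjusted p = 0.00515), and it was the only ABC gene called there, where 0.698% of all genes were (0.569% higher in ileum). The difference was 1.28 ± 0.24 in CD166 (adjusted p = 0.136) and 0.10 ± 0.19 in crypt (adjusted p = 0.881). In crypt no gene of any kind was called by edgeR. There 6 ABC genes and 12.9% of all genes had an unadjusted p under 0.05, and DESeq2 called 1 ABC gene and limma-voom 0. In CD166 0.0203% of all genes were called and none of the ABC genes. An unadjusted p under 0.05 was found there for 5 ABC genes and 6.36% of all genes. DESeq2 called 3 ABC genes in CD166 and limma-voom 1. The joint test of whether the region difference depends on the population gave an unadjusted p of 4.84e-05 for Abcb1a and an adjusted p of 0.178 in edgeR, 0.179 in limma-voom and 4.43e-08 in DESeq2. By edgeR the dependence on population therefore did not pass the threshold. None of the ABC genes was called in that test by edgeR, against 0.0136% of all genes. In it 6 ABC genes and 5.47% of all genes had an unadjusted p under 0.05, and DESeq2 called 1 ABC gene and limma-voom 0. Shares of all genes called by DESeq2 and limma-voom are not given.

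The Abcb1a difference over the populations stayed called without each of the 14 libraries in turn. Its call within LGR5 was lost without jejunum LGR5 1 or 2 (adjusted p 0.101 and 0.124), which leaves 1 library in that group. Without the library labelled ileum crypt 3, the CD166 difference was also called (1.28 ± 0.21, adjusted p = 0.0216), where 0.76% of all genes were. Of the 50-base windows of Abcb1a transcripts, 22.5% also occur in another gene, mostly Abcb1b, so reads of the pair may be shared. The sequence before the Abcb1a start is shown because it is the gene with the largest called region difference. It is 250 bases of the plus strand, chr5:8566841-8567090 of GRCm38.p6 from RefSeq, ending at the base before the start. Capitals mark the letters CANNTG, the E-box, searched on both strands.

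Abcb1a: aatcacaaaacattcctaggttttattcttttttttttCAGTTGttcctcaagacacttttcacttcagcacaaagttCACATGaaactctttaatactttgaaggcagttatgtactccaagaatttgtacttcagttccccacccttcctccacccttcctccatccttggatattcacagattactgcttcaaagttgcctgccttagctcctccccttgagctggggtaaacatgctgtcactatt

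The 2 E-boxes lie 212 and 172 bases before the start. An E-box occurs in 72.3% of the 32851 promoter windows in the table (250 bases before to 50 after a start). The other motifs searched did not occur in the Abcb1a window. They were 2 forms of the GATA factor site (AGATAA and TGATAA), the nuclear receptor core (AGGTCA) and its direct repeat with a spacer of 4 bases, the HNF1 palindrome, the CDX site (TTTATG, in 11.9% of windows), the SP1 site (GGGCGG, in 35.7%) and the TATA box (TATAAA).

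Abcd4 encodes a lysosomal protein needed to release vitamin B12 into the cytosol. Sorted ileum libraries had 36.3 and 30.8 CPM in LGR5 and 33.4 and 33.2 CPM in CD166. Sorted jejunum libraries had 23.4 and 23.9 CPM in LGR5 and 16.5 and 15.1 CPM in CD166. In crypt the ileum values were 35.2, 38.3 and 34.9 CPM and the jejunum values 38.1, 24.5 and 28.6 CPM. The regions were apart in both sorted populations and overlapped in crypt through jejunum crypt 1. The difference over the populations was 1.52-fold (0.61 ± 0.11, adjusted p = 0.0130). It missed the threshold without jejunum LGR5 1, jejunum LGR5 2 or jejunum CD166 2 (adjusted p 0.0609 to 0.0701).

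Abcc2 encodes an apical pump for glutathione and glucuronide conjugates, Mrp2. Ileum crypt libraries had 88.2, 72.4 and 156 CPM, and jejunum crypt libraries 153, 379 and 199 CPM. LGR5 cells had 30.3 and 33.4 CPM in ileum and 54.8 and 68.9 CPM in jejunum, and CD166 cells had 26.6 and 17.2 CPM in ileum and 34.8 and 47.7 CPM in jejunum. The jejunum libraries were above the ileum libraries of the same population except that ileum crypt 3 slightly exceeded jejunum crypt 1. Abcc2 was 2.04-fold lower in ileum (-1.03 ± 0.24, adjusted p = 0.0349).

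This call was close to the threshold. It was lost without any 1 of 11 of the 14 libraries (adjusted p 0.0504 to 0.127), with a log2 difference of -1.16 to -0.87, and was kept only without ileum crypt 3, jejunum crypt 1 or jejunum crypt 2. Within crypt the difference was -1.20 ± 0.36 (adjusted p = 0.254) with all libraries and -1.60 ± 0.37 (adjusted p = 0.0406) without ileum crypt 3. The sum of enterocyte markers was highest in jejunum crypt 2 (43520 CPM), the library highest in Abcc2, with Apoa4 at 14560 and Fabp2 at 16290 CPM. Alpi, Sis, Slc5a1 and Krt20 were also highest there. Anpep, Vil1 and Lct were lower there (2062, 1274 and 877 CPM) than in jejunum crypt 1 (4146, 1871 and 1111 CPM) and 3 (4478, 1851 and 1195 CPM). Over the populations, 5 of the 9 enterocyte markers were lower in ileum and 1, Krt20, was higher (1.08 ± 0.24, adjusted p = 0.0284). The part of enterocytes in the Abcc2 difference was not tested.

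Abcb10 encodes a mitochondrial inner membrane transporter that supports haem synthesis in red cell precursors. Ileum libraries had 61.0, 54.7 and 68.5 CPM in crypt, 28.1 and 30.0 CPM in LGR5, and 34.0 and 45.6 CPM in CD166. Jejunum libraries had 72.8, 77.8 and 67.6 CPM in crypt, 36.7 and 33.8 CPM in LGR5, and 67.4 and 64.8 CPM in CD166. The jejunum was higher within LGR5 and within CD166 in every library, and in crypt ileum 3 lay above jejunum 3. The difference was small, 1.34-fold (-0.42 ± 0.10, adjusted p = 0.0306), and its call was lost without any 1 of 9 libraries (adjusted p 0.0506 to 0.104). Of the 50-base windows of Abcb10, 8.27% occur in another gene, and their share in the counts is not known.

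Abcc4 encodes a pump for cyclic nucleotides, prostaglandins and conjugates, Mrp4. It had 27.9 and 18.6 CPM in ileum LGR5 and 7.75 and 5.24 CPM in jejunum LGR5. The CD166 values were 19.5 and 28.3 CPM in ileum and 15.2 and 11.8 CPM in jejunum, and the crypt values were 9.69, 10.9 and 3.89 CPM in ileum and 4.86, 7.19 and 2.02 CPM in jejunum. Ileum was above jejunum in both sorted populations, and ileum crypt 3 lay below 2 of the 3 jejunum crypt libraries. The difference over the populations was 1.17 ± 0.31, with an adjusted p of 0.0558 that missed the threshold. It was called without ileum crypt 3 (1.28 ± 0.27, adjusted p = 0.0168) and without jejunum crypt 2, and by DESeq2 and limma-voom.

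Among members not called, the largest region difference over the populations in subfamily a was that of Abca2, a lipid transporter of endosomes and lysosomes. Sorted ileum libraries had 14.1 to 17.2 CPM of Abca2 and sorted jejunum libraries 29.2 to 41.0 CPM, while crypt ran from 7.84 to 34.6 CPM in ileum and from 23.8 to 66.6 CPM in jejunum. The sorted regions did not overlap, and the crypt regions did. The log2 difference over the populations was -0.997 ± 0.31 (adjusted p = 0.102). Abcg1, a sterol and phospholipid exporter, was at 4.06 and 4.30 CPM in ileum LGR5 and 0.239 and 0.491 CPM in jejunum LGR5 (3.43 ± 1.14, adjusted p = 0.190). Its jejunum LGR5 values are close to the level of 3 counts, so this size is poorly fixed. It was highest in jejunum crypt 2 (15.8 CPM) and ileum crypt 1 (7.30 CPM), the libraries high in lymphocyte markers.

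Without ileum crypt 3, 6 ABC genes were called over the populations, where 8.61% of all genes were. The added ones were Abcc4 and Abcd3 (-0.47 ± 0.12, adjusted p = 0.0443). Within crypt 5 were then called, all lower in ileum, where 4.17% of all genes were called and 2.56% were lower. Among them were the lysosomal peptide transporter gene Abcb9 (-1.27 ± 0.26), Abcc2, the peroxisomal transporter gene Abcd3 (-0.86 ± 0.21) and the sterol transporter gene Abcg8 (-0.88 ± 0.18), these 4 with adjusted p from 0.0251 to 0.0461. With that library kept, the crypt levels of Abcc2 and Abcd3 overlapped between regions, and those of Abcb9 and Abcg8 did not. Without jejunum crypt 1 as well, 5 were called in crypt, among them Abcb9, Abcc2, Abcg5 and Abcg8, and Abcd3 was not. The share of all genes called without both libraries is not given.

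**Figure D3:**
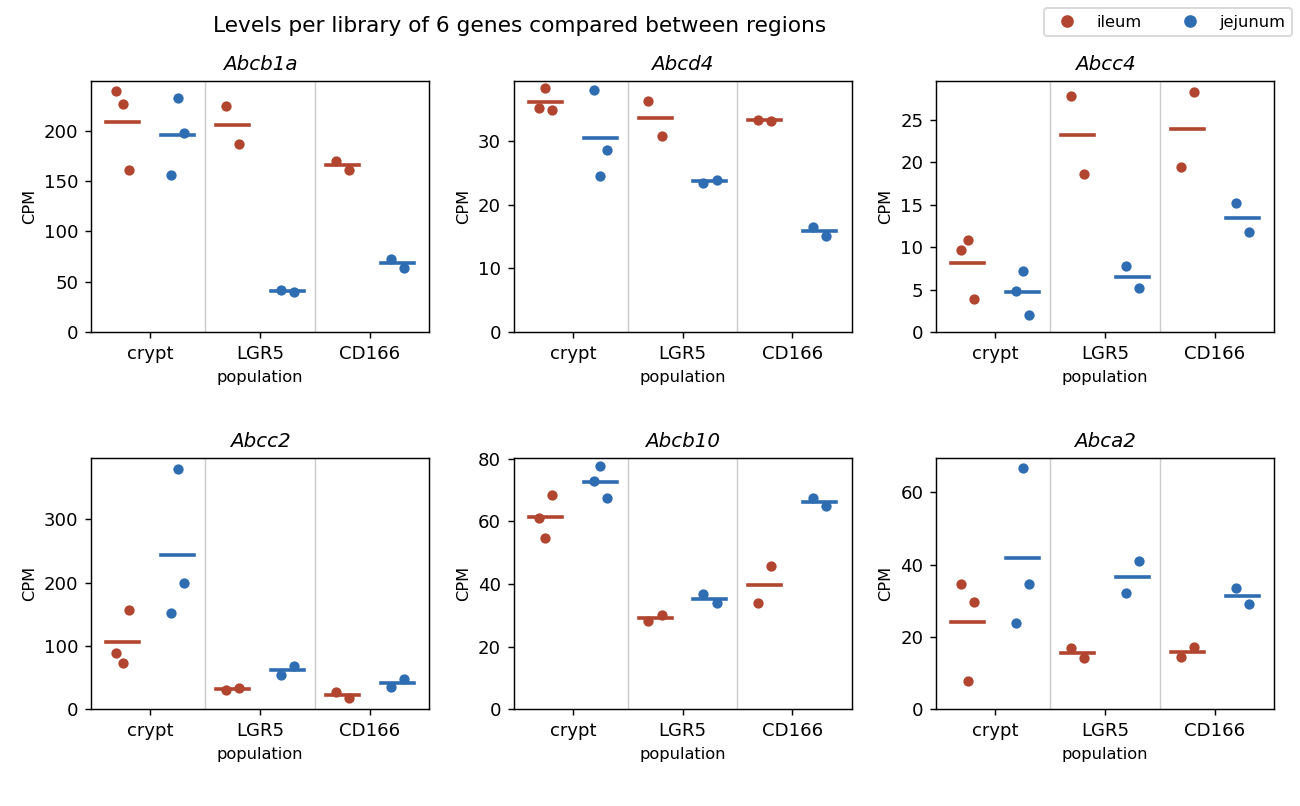
Levels in CPM (vertical axes, from 0) of 6 ABC genes in each library, by population; red points are ileum, blue points jejunum and lines are group means. Abcb1a, Abcd4 and Abcc4 lie higher in ileum in LGR5 and CD166, Abcc2, Abcb10 and Abca2 lie higher in jejunum there, and the crypt points of all 6 genes overlap between regions.

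Comparing the sorted cells with crypt asks which ABC genes set stem-cell-selected cells apart from the whole crypt of the same regions. LGR5 cells differed from crypt in 14 of 33 ABC genes, 1 higher and 13 lower (42.4%, against 31.5% of all genes, 13% higher and 18.5% lower). CD166 cells differed in 16, 4 higher and 12 lower (48.5%, against 30.1% of all genes, 13.6% higher and 16.5% lower). Both comparisons use the same crypt libraries. The lists shared 9 lower genes, which are 9 of 13 in LGR5 and 9 of 12 in CD166, and 1 higher gene, Abcc1. The share of all genes called in both is not given, so this overlap has no baseline. The median log2 difference of the 33 genes was -0.38 in LGR5 and -0.29 in CD166, against -0.01 and 0.02 over all genes. These counts describe only the genes that passed the filter, and a gene can pass through a high level in 1 group alone. In bulk RNA, fewer cells of a type and less RNA per cell cannot be told apart.

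**Figure D4:**
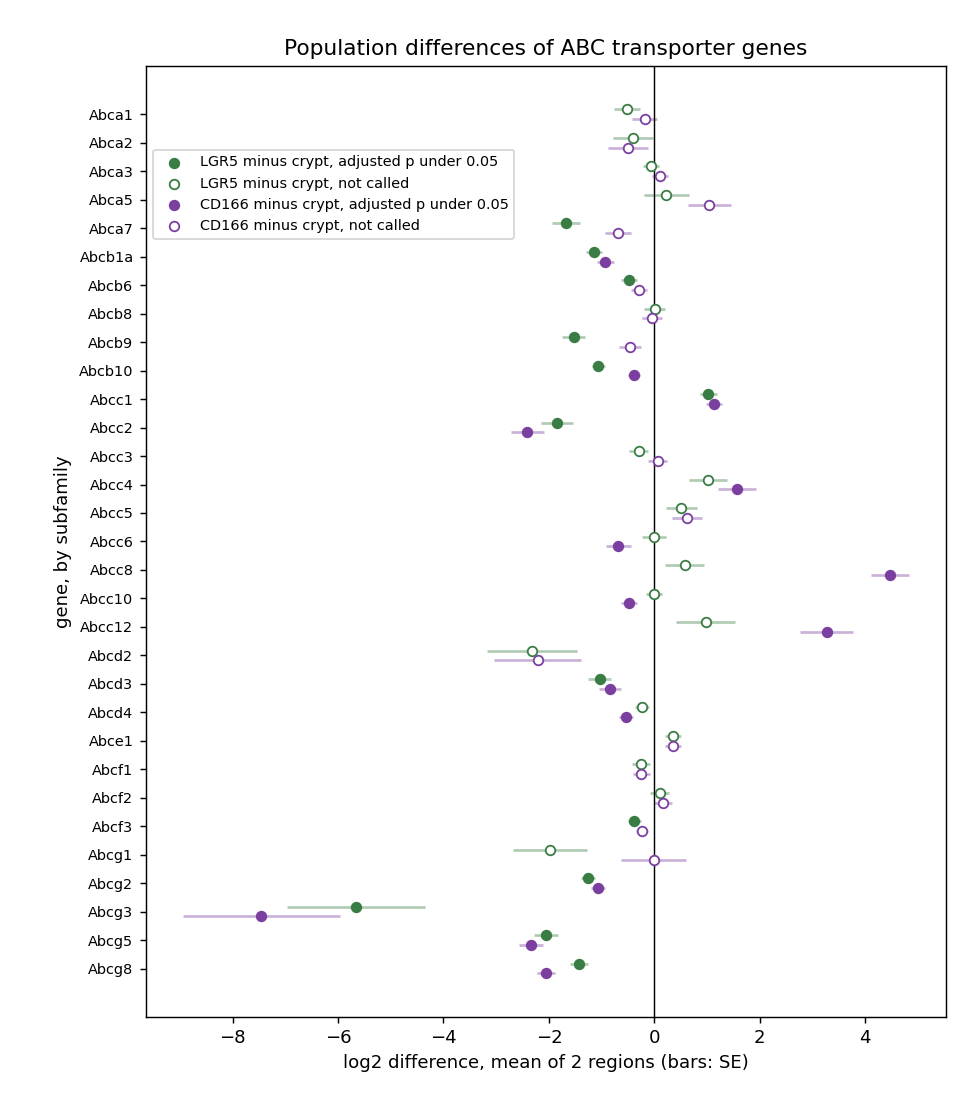
Log2 differences of 31 ABC genes, LGR5 minus crypt (green) and CD166 minus crypt (purple), each as the mean of both regions; bars are standard errors and filled points have an adjusted p under 0.05. Abcg5, Abcg8, Abcg2, Abcc2 and Abcd3 lie to the left of 0 in both, Abcc1 to the right in both, and Abcc8 (4.47) far to the right in CD166; the fitted values of Abcg3 and Abcc12 rest on libraries below the level of 3 counts.

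The sterol exporters were the clearest case. Abcg5 and Abcg8 encode the 2 subunits of the apical pump that returns plant sterols and cholesterol to the gut lumen. Abcg5 was at 168, 115 and 225 CPM in the crypt libraries of ileum and 225, 329 and 312 CPM in those of jejunum. In LGR5 it was at 54.3 and 55.9 CPM in ileum and 59.3 and 43.0 CPM in jejunum, and in CD166 at 54.5 and 38.7 CPM in ileum and 33.6 and 48.2 CPM in jejunum. Every crypt library was above every sorted library.

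Abcg8 followed the same order, with 133, 94.6 and 181 CPM in the crypt libraries of ileum and 192, 206 and 229 CPM in those of jejunum. It had 65.4 and 64.3 CPM in ileum LGR5, 58.2 and 61.7 CPM in jejunum LGR5, 47.9 and 36.7 CPM in ileum CD166, and 38.8 and 38.8 CPM in jejunum CD166. Abcg5 was 4.17-fold lower in LGR5 (-2.06 ± 0.23, adjusted p = 0.000124) and 5.07-fold lower in CD166 (-2.34 ± 0.23, adjusted p = 7.21e-05). Abcg8 was 2.71-fold lower in LGR5 (-1.44 ± 0.17, adjusted p = 0.000202) and 4.17-fold lower in CD166 (-2.06 ± 0.18, adjusted p = 3.62e-05). These calls held without each library in turn. CD166 and LGR5 cells were not shown to differ in Abcg5 (-0.28 ± 0.23, adjusted p = 0.770) or Abcg8 (-0.62 ± 0.18, adjusted p = 0.176). All 9 enterocyte markers were lower in both sorted populations too, and their part in these differences was not tested.

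The Abcg5 and Abcg8 genes lie head to head, and the stretch between their starts is shown because they moved together. It is 109 bases of the plus strand, chr17:84683012-84683120 of GRCm38.p6 from RefSeq, with Abcg5 starting on the left and read to the left, and Abcg8 starting on the right and read to the right. Capitals mark AGATAA on either strand (written TTATCT here), a form of the site that GATA factors bind.

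Abcg5-Abcg8: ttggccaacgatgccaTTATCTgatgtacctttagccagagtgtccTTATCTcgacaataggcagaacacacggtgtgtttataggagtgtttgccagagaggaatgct

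The 2 marked matches start 52 and 22 bases before the Abcg5 start, and 93 and 63 bases before that of Abcg8. The stretch also holds TATAAA on the minus strand, 31 bases before the Abcg8 start. AGATAA occurs in 11.2% and TATAAA in 13.6% of the 32851 windows. The 300-base windows of the pair overlap by 209 bases, so their matches are the same letters and are not independent. Between regions, Abcg5 differed by -0.16 ± 0.18 over the populations (adjusted p = 0.772) and by -0.77 ± 0.26 within crypt (adjusted p = 0.275). Abcg8 differed by -0.13 ± 0.14 over the populations (adjusted p = 0.762) and by -0.62 ± 0.21 within crypt (adjusted p = 0.269), and was called there without ileum crypt 3, as given above.

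Abca1 and Abcg1 export cholesterol to lipoproteins. Abca1 was at 16.1, 13.0 and 15.7 CPM in ileal crypt libraries, 11.8, 24.0 and 20.1 CPM in jejunal ones, 21.97 and 13.99 CPM in ileum LGR5, and 6.44 and 8.44 CPM in jejunum LGR5. In CD166 it was at 10.2 and 17.3 CPM in ileum and 15.8 and 15.4 CPM in jejunum. Abca1 was not called in any comparison, and its levels in LGR5 did not overlap between regions (1.27 ± 0.37, adjusted p = 0.141). Of 11 listed genes of sterol sensing and traffic, 4 were lower in LGR5 and 4 lower and 1 higher (Scarb1, the lipoprotein receptor, 1.67 ± 0.54) in CD166 than in crypt. The 4 lower in both were Npc1l1, the apical cholesterol importer (-3.67 ± 0.28 and -3.10 ± 0.27), Soat2, which esterifies cholesterol, Apoa1, the chief protein of high density lipoprotein, and Nr1h3, which encodes the sterol receptor LXR alpha (-1.30 ± 0.18 and -1.14 ± 0.17). Npc1l1 was also lower in ileum (-0.97 ± 0.20, adjusted p = 0.0202), the only one of the 11 called between regions.

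Among the pumps for foreign compounds, Abcg2, Abcb1a and Abcc2 were lower in sorted cells and Abcc1 was higher. Abcg2, the breast cancer resistance protein of the apical membrane, was at 142, 117 and 135 CPM in the crypt libraries of ileum and 136, 142 and 146 CPM in those of jejunum. Sorted libraries had 48.8 and 62.7 CPM in ileum LGR5, 65.8 and 50.2 CPM in jejunum LGR5, 50.3 and 65.4 CPM in ileum CD166, and 66.3 and 80.0 CPM in jejunum CD166. Crypt and sorted libraries did not overlap, and Abcg2 was not called between regions (-0.17 over the populations, adjusted p = 0.529). Abcg2 was 2.40-fold lower in LGR5 (-1.26 ± 0.14, adjusted p = 0.000116) and 2.09-fold lower in CD166 (-1.07 ± 0.14, adjusted p = 0.000313).

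Abcc2 was 3.61-fold lower in LGR5 (-1.85 ± 0.30, adjusted p = 0.00143) and 5.33-fold lower in CD166 (-2.41 ± 0.31, adjusted p = 0.000364), with no overlap between crypt and sorted libraries. For Abcb1a the average over regions was 2.21-fold lower in LGR5 (adjusted p = 0.000492) and 1.90-fold lower in CD166 (adjusted p = 0.00156). The library values given above show that this average joins unlike regions: in ileum the 4 sorted libraries lay within the crypt range, and in jejunum all 4 lay below it.

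The sequence before the Abcc2 start is shown because Abcc2 was called both between regions and between populations. It is 250 bases of the plus strand, chr19:43782058-43782307 of GRCm38.p6 from RefSeq, ending at the base before the start. Capitals mark TGATAA, another form of the GATA site, and AGGTCA, the core that nuclear receptors bind, each searched on both strands.

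Abcc2: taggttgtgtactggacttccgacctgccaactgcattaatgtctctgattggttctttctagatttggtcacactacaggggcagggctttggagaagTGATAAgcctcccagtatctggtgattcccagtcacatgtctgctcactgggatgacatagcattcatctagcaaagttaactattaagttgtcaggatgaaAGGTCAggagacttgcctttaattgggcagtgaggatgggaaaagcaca

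TGATAA lies 151 bases and AGGTCA 49 bases before the start, letters found in 9.05% and 16.3% of the windows. Of 7 listed sensors of foreign compounds and their partners, 4 were lower than in crypt in LGR5 and in CD166: Nr1i3, the receptor CAR (-2.60 ± 0.43 and -2.42 ± 0.42), Nr1i2, the receptor PXR (-0.72 ± 0.16 and -0.98 ± 0.17), Rxra, the partner of both, and Nfe2l2, which encodes Nrf2. Between regions Nr1i3 alone of the 7 was called, lower in ileum (-2.05 ± 0.34, adjusted p = 0.0101), in the same direction as Abcc2. For Nr1i2 the region difference was -0.25 ± 0.14 (adjusted p = 0.406).

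Abcc1, a basolateral pump for glutathione conjugates, was the only ABC gene higher in both sorted populations. Ileum crypt had 23.3, 23.0 and 21.4 CPM and jejunum crypt 18.8, 15.6 and 11.8 CPM. LGR5 had 42.2 and 34.0 CPM in ileum and 38.6 and 37.1 CPM in jejunum, and CD166 had 31.8 and 42.6 CPM in ileum and 50.9 and 38.4 CPM in jejunum. Every sorted library was above every crypt library. Abcc1 was 2.04-fold higher in LGR5 (1.03 ± 0.15, adjusted p = 0.000822) and 2.19-fold higher in CD166 (1.13 ± 0.15, adjusted p = 0.000483), and both calls held without each library in turn.

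Abcc4 was also higher in CD166 than in crypt (2.95-fold, 1.56 ± 0.36, adjusted p = 0.00790), and in LGR5 its difference of 1.01 ± 0.36 missed the threshold (adjusted p = 0.0537). Abcc3, the basolateral pump for bile salts and glucuronides, was not called in any comparison. Its levels were 69.1, 103 and 117 CPM in ileal crypt libraries, 111, 99.9 and 163 CPM in jejunal ones, 88.9 and 108 CPM in ileum LGR5, and 76.4 and 85.5 CPM in jejunum LGR5. In CD166 it was at 82.9 and 111 CPM in ileum and 144 and 127 CPM in jejunum. All groups overlapped with the crypt libraries of both regions pooled, but within jejunum LGR5 lay below crypt. Bile acid genes that work beside it did differ: 5 of 7 listed and tested genes were higher in ileum (Fabp6, Slc10a2, Fgf15, Nr1h4 and Osta) and 1 was lower (Nr0b2).

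**Figure D5:**
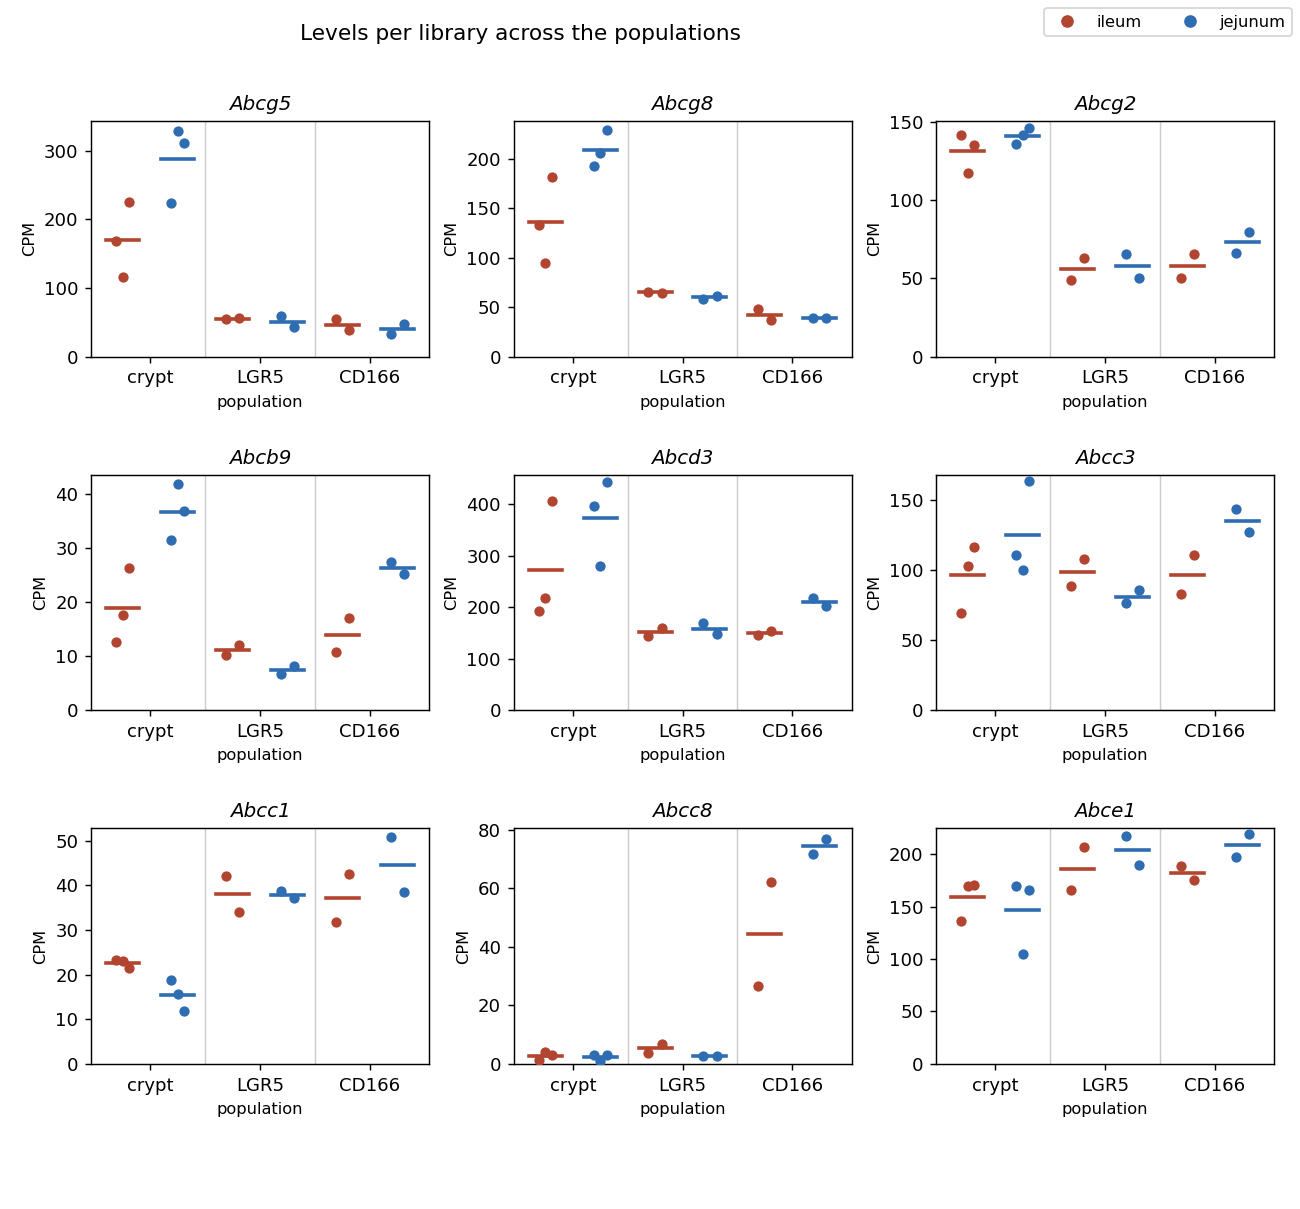
Levels in CPM (vertical axes, from 0) of 9 ABC genes in each library, by population; red points are ileum, blue points jejunum and lines are group means. Crypt lies above both sorted populations for Abcg5, Abcg8 and Abcg2 and below them for Abcc1, and Abcc8 is high in CD166 alone. With both regions pooled, Abcc3 overlaps across populations. Abce1 in LGR5 then overlaps with crypt and CD166, and in CD166 it lies above crypt.

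Abcc8 showed the largest called difference of any ABC gene above 10 CPM. It encodes SUR1, the regulatory subunit of ATP-sensitive potassium channels, known from beta cells and enteroendocrine cells. CD166 libraries had 26.8 and 62.1 CPM in ileum and 71.9 and 76.8 CPM in jejunum. LGR5 libraries had 3.68 and 6.89 CPM in ileum and 2.86 and 2.79 CPM in jejunum, and the crypt libraries 1.48, 3.92 and 2.97 CPM in ileum and 2.94, 0.899 and 3.00 CPM in jejunum. All 4 CD166 libraries were above all others. The difference was 22.2-fold from crypt (4.47 ± 0.36, adjusted p = 3.11e-05) and 14.9-fold from LGR5 (3.90 ± 0.41, adjusted p = 0.000975), and both calls held without each library in turn.

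Kcnj11, the gene of the channel pore that SUR1 joins, moved the same way. It was at 7.39 and 13.8 CPM in ileum CD166 and 22.9 and 17.6 CPM in jejunum CD166, and at 0 to 2.91 CPM in the other 10 libraries. It was higher in CD166 than in crypt (3.97 ± 0.58, adjusted p = 0.000704) and than in LGR5 (3.92 ± 0.68, adjusted p = 0.0124). The sum of enteroendocrine markers was highest in the same libraries, though not every marker was. The 8 markers summed to 786 and 1602 CPM in ileum CD166 and 3505 and 3449 CPM in jejunum CD166, to 214 to 548 CPM in LGR5 and to 193.8 to 756 CPM in crypt, with no marker at 0 throughout a group. Of the 8, 5 were higher in CD166 than in LGR5 and 4 higher and 1 lower than in crypt. In ileum CD166 the markers were uneven. Tph1 was at 4.77 and 6.34 CPM there, below its 6.50 to 16.1 CPM in crypt. Chga, at 61.2 and 112.7 CPM, lay within its crypt range of 40.3 to 177.6 CPM. Gcg, at 338.5 and 366.6 CPM, lay above its crypt range of 12.6 to 130 CPM. Markers of Paneth and tuft cells were high in CD166 too, and those of goblet cells were not. Goblet cell markers summed to 5155 to 10620 CPM in CD166, 1780 to 23390 CPM in LGR5 and 6278 to 13150 CPM in crypt. Of 7 goblet cell markers, 1 was lower in CD166 than in crypt, 0 were higher, and 0 were called against LGR5. Paneth cell markers summed to 26580 to 46940 CPM in CD166, 4456 to 6987 CPM in LGR5 and 4937 to 31610 CPM in crypt, and of 6, 4 were higher in CD166 than in LGR5 and 3 higher than in crypt. Tuft cell markers summed to 201 to 495 CPM in CD166, 119.5 to 463 CPM in LGR5 and 42.0 to 109.8 CPM in crypt, and of 5, 4 were higher in CD166 than in crypt and 0 were called against LGR5. The part of these cells in the Abcc8 difference was not tested.

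Abcc12, an orphan member of subfamily c, was called with Abcc8 at a far lower level. It had 0.831 and 1.39 CPM in ileum CD166, 4.89 and 4.89 CPM in jejunum CD166, 0.184 and 0.430 CPM in ileum LGR5 and 0.716 and 0.737 CPM in jejunum LGR5. Crypt libraries had 0.114, 0.151 and 0.801 CPM in ileum and 0.184, 0.180 and 0.109 CPM in jejunum. The jejunum CD166 libraries were the highest, and every other library was at 1.39 CPM or less. In crypt 5 of the 6 libraries were below the level of 3 counts and ileum crypt 3 was the highest, so no fold is given. Abcc12 was called higher in CD166 than in crypt (adjusted p = 0.001), and between CD166 and LGR5 it missed the threshold (adjusted p = 0.0692). Without ileum crypt 3 it was also called between CD166 and LGR5 (adjusted p = 0.0171, where 1.69% of all genes were called) and between LGR5 and crypt (adjusted p = 0.0289, where 26.6% were). Abcc9, the other sulphonylurea receptor gene of the family, stayed below the filter at 0.064 to 1.06 CPM.

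Abcd3, which carries branched chain and dicarboxylic fatty acids into peroxisomes, fell in sorted cells. It was at 193, 218 and 406 CPM in the crypt libraries of ileum and 398, 279.9 and 443 CPM in those of jejunum. Levels were 145 and 160.5 CPM in ileum LGR5, 169.5 and 148 CPM in jejunum LGR5, 147 and 153 CPM in ileum CD166, and 218 and 203 CPM in jejunum CD166. LGR5 was below crypt in every library, and jejunum CD166 reached the lowest ileum crypt values. The decrease was 2.05-fold in LGR5 (-1.03 ± 0.22, adjusted p = 0.00528) and 1.79-fold in CD166 (-0.84 ± 0.22, adjusted p = 0.0135). The CD166 call missed the threshold without ileum CD166 1, ileum CD166 2 or jejunum CD166 2 (adjusted p 0.0530 to 0.0578). Of 5 partner genes of the organelle, 4 were lower in both sorted populations, among them Pex19, which delivers membrane proteins such as the Abcd3 product (-0.77 ± 0.13 and -0.66 ± 0.13). Pex3, the docking partner of Pex19, was not called. Abcd4, which is not peroxisomal, was 1.45-fold lower in CD166 than in crypt (-0.53 ± 0.13, adjusted p = 0.0115). That call was lost without ileum CD166 2 or jejunum CD166 2. The average joins unlike regions. In jejunum CD166 had 16.5 and 15.1 CPM against 24.5 to 38.1 CPM in crypt. In ileum CD166 had 33.4 and 33.2 CPM against 34.9 to 38.3 CPM. Abcd2, another peroxisomal gene, was at 0 to 4.49 CPM and was not called, with its highest values in jejunum crypt 2 (4.49 CPM) and ileum crypt 1 (2.18 CPM).

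In subfamily b, besides Abcb1a, the intracellular genes fell unevenly. Abcb10 was 2.09-fold lower in LGR5 (-1.06 ± 0.12, adjusted p = 0.000126), 1.30-fold lower in CD166 (-0.38 ± 0.11, adjusted p = 0.0272) and 1.60-fold higher in CD166 than in LGR5 (0.68 ± 0.12, adjusted p = 0.0171). Abcb9, which moves peptides into lysosomes, was at 12.7, 17.7 and 26.3 CPM in the crypt libraries of ileum and 31.5, 41.9 and 36.9 CPM in those of jejunum. It was at 10.2 and 12.0 CPM in ileum LGR5, 6.66 and 8.25 CPM in jejunum LGR5, 10.8 and 17.1 CPM in ileum CD166, and 27.4 and 25.3 CPM in jejunum CD166. LGR5 was below all crypt libraries, and the 2 regions of CD166 lay apart. Abcb9 was 2.90-fold lower in LGR5 than in crypt (-1.53 ± 0.22, adjusted p = 0.000672) and 2.11-fold higher in CD166 than in LGR5 (1.07 ± 0.23, adjusted p = 0.0458). This last average joins unlike regions: CD166 overlapped LGR5 in ileum and lay above it in jejunum.

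Between CD166 and LGR5 only Abcb9, Abcb10 and Abcc8 were called, all higher in CD166 (9.09% of the ABC genes against 1.61% of all genes, none of which was lower). Of these, Abcc8 alone kept its call without each library in turn. The Abcb10 call was lost without any 1 of 7 libraries (adjusted p 0.0630 to 0.127) and the Abcb9 call without any 1 of 10 (adjusted p 0.0597 to 0.261) and with limma-voom (adjusted p = 0.0626). The Abcb10 decrease in CD166 from crypt was lost without ileum crypt 3, ileum CD166 1, jejunum CD166 1 or jejunum CD166 2 (adjusted p 0.0530 to 0.104).

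Abcb6, a porphyrin-linked transporter, was at 43.4, 39.9 and 42.7 CPM in ileal crypt libraries, 36.4, 24.3 and 41.4 CPM in jejunal ones, 28.1 and 29.2 CPM in ileum LGR5, and 26.1 and 25.1 CPM in jejunum LGR5. In CD166 it was at 25.9 and 32.4 CPM in ileum and 37.2 and 28.3 CPM in jejunum. The LGR5 difference from crypt was 1.40-fold (-0.49 ± 0.16, adjusted p = 0.0351) and was lost without any 1 of 8 libraries (adjusted p 0.0567 to 0.115). Of its 50-base windows 50.0% occur in another gene model, Gm29253, so its counts are uncertain. Abcb8, a mitochondrial member, lay at 47.2 to 100.6 CPM in the 14 libraries and was not called. Of 7 listed mitochondrial iron, sulphur and haem genes, 2 were lower in both sorted populations, the iron importer gene Slc25a37 and Alas1, which starts haem synthesis, and 1 was higher in CD166.

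Further calls were smaller or tied to particular libraries. Abca7, a lipid transporter of phagocytic and other cells, was at 79.8, 45.7 and 49.3 CPM in ileal crypt libraries, 46.7, 91.0 and 45.5 CPM in jejunal ones, 17.4 and 29.2 CPM in ileum LGR5, and 13.4 and 16.5 CPM in jejunum LGR5. CD166 had 28.4 and 33.2 CPM in ileum and 42.8 and 46.4 CPM in jejunum. It was 3.19-fold lower in LGR5 than in crypt (-1.67 ± 0.26, adjusted p = 0.00104), with no overlap, and the CD166 difference of -0.68 ± 0.25 missed the threshold (adjusted p = 0.0579). Its 2 highest libraries were jejunum crypt 2 and ileum crypt 1, those high in lymphocyte markers. The other 4 crypt libraries had 45.5 to 49.3 CPM of Abca7, and their lymphocyte marker sums (103.7 to 910 CPM) were also above those of LGR5 (6.90 to 33.7 CPM). The part of these cells in the difference was not tested.

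Abcg3, a mouse gene related to Abcg2, was at 5.03, 0.603 and 1.72 CPM in the crypt libraries of ileum and 2.02, 17.4 and 0.981 CPM in those of jejunum. It was at 0 and 0.108 CPM in ileum LGR5, 0 and 0.164 CPM in jejunum LGR5, 0 and 0 CPM in ileum CD166, and 0 and 0.0744 CPM in jejunum CD166. All 8 sorted libraries were below the level of 3 counts, so no fold is given. The decrease was called in LGR5 (adjusted p = 0.00956) and CD166 (adjusted p = 0.00480). In LGR5 it was lost without ileum LGR5 1 (adjusted p = 0.0538) and with limma-voom (adjusted p = 0.0565). The order of its crypt levels from the highest, jejunum crypt 2 then ileum crypt 1, was that of the lymphocyte marker sums, and their part in the result was not tested.

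Abcc10, a broad-specificity drug pump, was at 42.0, 35.9 and 41.3 CPM in ileal crypt libraries, 39.4, 40.2 and 42.1 CPM in jejunal ones, 32.3 and 30.3 CPM in ileum LGR5, and 44.03 and 57.8 CPM in jejunum LGR5. In CD166 it was at 32.0 and 22.1 CPM in ileum and 23.9 and 37.4 CPM in jejunum, 1.40-fold below crypt (-0.48 ± 0.16, adjusted p = 0.0381). Abcc6, whose loss in humans causes pseudoxanthoma elasticum, was at 25.5, 18.5 and 28.4 CPM in ileal crypt libraries, 29.9, 33.2 and 31.4 CPM in jejunal ones, 22.2 and 13.6 CPM in ileum LGR5, and 37.1 and 47.3 CPM in jejunum LGR5. In CD166 it was at 21.5 and 12.0 CPM in ileum and 12.5 and 22.8 CPM in jejunum, 1.61-fold below crypt (-0.68 ± 0.24, adjusted p = 0.0479). Both decreases were small and close to the threshold. They were lost without any 1 of 6 libraries for Abcc10 (adjusted p 0.0504 to 0.166) and of 8 for Abcc6 (adjusted p 0.0574 to 0.186).

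The members that move nothing across a membrane gave a single call. Abce1, which splits ribosomes for reuse after translation, was at 104.6 to 219 CPM and was not called (0.35 ± 0.15 in each sorted population, adjusted p = 0.104 in LGR5 and 0.107 in CD166). Abcf1 at 122 to 210.0 CPM and Abcf2 at 39.5 to 84.0 CPM were not called either. Abcf3 was at 52.7, 59.9 and 59.8 CPM in ileal crypt libraries, 58.7, 57.2 and 71.6 CPM in jejunal ones, 42.3 and 55.0 CPM in ileum LGR5, and 47.5 and 39.9 CPM in jejunum LGR5. In CD166 it was at 50.2 and 48.0 CPM in ileum and 49.0 and 56.6 CPM in jejunum. It was 1.30-fold lower in LGR5 (-0.38 ± 0.12, adjusted p = 0.0336), a call lost without any 1 of 8 libraries (adjusted p 0.0505 to 0.150). Of 5 listed genes of ribosome recycling and translation control, Eif2ak4 was higher in LGR5 and Eif2s1 higher in CD166.

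Over all 8 comparisons 20 of the 33 ABC genes were called at least once and 13 in none. The share of all genes called at least once is not given, so this count has no baseline. LGR5 against crypt alone called 31.5% of all genes, and CD166 against crypt 30.1%. Beside those described, these 13 include Abca3, a lamellar body lipid transporter, at 43.4 to 88.6 CPM, Abca5 at 0.551 to 3.95 CPM, and Abcc5, a cyclic nucleotide pump, at 9.94 to 35.4 CPM. For Abca5 the CD166 difference from crypt was 1.04 ± 0.41 (adjusted p = 0.0784), and its level stayed low.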

How the data were processed

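The deposited tables of 14 libraries were used, each with 36401 genes. Libraries were TruSeq, read as single-end 50-base reads, per the labels' protocols. The submitters' processing notes name mm9 and DESeq. For the aligner, the counting program and its annotation, no name is given in the sources used here. Although named for RPKM, 1 kind of table deposited by the authors holds expected counts without scaling. The other holds log2 values, which the authors centred on the median of each gene, and these served only as an alternative.

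Expected counts were rounded and filtered in edgeR 4.0.16 (R 4.3.3, filterByExpr, minimum count 10 and total 15), which left 14750 genes. The model had TMM factors and 1 mean per group over all 14 libraries, with quasi-likelihood F tests (glmQLFit, robust) adjusted by Benjamini-Hochberg over all genes in each of 8 comparisons. The standard error is the log2 difference divided by the square root of F. The code was tested on simulated data. Library totals of 6295828 to 20380369 put 3 counts at 0.163 to 0.539 CPM, which covers counting error only.

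Members and companion lists were chosen with earlier results of these data known. Values are given for each library of every called member and of Abcb1a, Abcb1b, Abcc2, Abcc3, Abcc4, Abcg2, Abcg5, Abcg8, Abca1 and Abcb4. Results of 2 members and of some companion genes are not reported here by name, but are in the counts. Others appear by counts or as examples of their subfamily, and companion genes come only from the lists. Promoters were in the RefSeq table (GRCm38.p6) for 38 of the 50 members. Exon lengths and shared 50-base windows came from a GRCm38 annotation. Alternatives were DESeq2 size factors, 2 other filters, DESeq2 1.42.0, limma-voom (limma 3.58.1), the compared groups or sorted libraries alone, a replicate block, the deposited log2 values, and leaving out libraries.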

Additional observations from a re-analysis of the deposited data

How the results depend on the processing

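Of 39 differences of named ABC genes followed through 26 alternatives, 24 kept their side of the threshold in every one, and none reversed. Counts of called ABC genes moved more. For most alternatives in this section the share of all genes called is not given. The counts therefore show only how far the calls depend on the processing. Over the populations ileum and jejunum differed in 4 genes, in 2 with limma on the deposited log2 values and in 8 with the sorted libraries alone. In crypt 0 became 1 with DESeq2, and 5 without ileum crypt 3 and jejunum crypt 1 together. In LGR5 1 became 5 with DESeq2, 9 with only the groups compared and 6 with the sorted libraries alone. It became 2 without ileum crypt 1 and jejunum crypt 2, the crypt libraries high in Xist, an alternative chosen after seeing the data. In CD166 0 became 3 with DESeq2, 1 with limma-voom, 4 with only the groups compared and 5 with the sorted libraries alone, and 2 without either pair of crypt libraries. For the dependence of region on population 0 became 1, Abcb1a, with DESeq2 and without the Xist-high pair. Between CD166 and LGR5 3 became 5 with DESeq2, 7 with only the groups compared, 7 with the sorted libraries alone and 6 without the Xist-high pair. The cause was not tested. DESeq2 size factors, no filter and a filter of 1 CPM in 4 libraries left every count within 1.5 times the reported one.

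Leaving out 1 library at a time gave 1 to 6 called ABC genes between regions over the populations, 0 to 5 in crypt, 0 to 2 in LGR5, 0 to 2 in CD166 and 0 to 0 for the dependence on population. It gave 11 to 17 between LGR5 and crypt, 12 to 20 between CD166 and crypt and 1 to 5 between CD166 and LGR5. Over the populations the lowest count came without jejunum LGR5 1, jejunum LGR5 2 or jejunum CD166 2, and the highest without ileum crypt 3 or jejunum crypt 2. In crypt only the omission of ileum crypt 3 gave any call. In LGR5 the count of 0 came without jejunum LGR5 1 or 2, and the highest counts in LGR5, in CD166 and between CD166 and LGR5 came without jejunum crypt 2. Other alternatives ended calls of 8 genes. With no filter these were Abcb10 between regions, Abcb6 and Abcf3 in LGR5 and Abcb10, Abcc6 and Abcc10 in CD166. Leaving out ileum crypt 3 and jejunum crypt 1 together ended Abcb6 and Abcf3 in LGR5 and Abcb10, Abcc6 and Abcc10 in CD166, and leaving out the Xist-high pair ended Abcc6. With only the groups compared, Abcf3, Abcc10 and Abcc6 were lost. The deposited log2 values ended Abcb10 and Abcc2 between regions and Abcb9 between CD166 and LGR5, and limma-voom ended Abcg3 in LGR5 and Abcb9 between CD166 and LGR5. A lone library left in a group is assumed to vary like the other groups.

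Whether replicate numbers pair the samples could not be decided. Correlations of deviations from the group mean between libraries with the same number were -0.389, -0.454 and 0.378 in crypt, -0.211 in LGR5 and -0.288 in CD166. With 2 libraries in a group the deviations mirror each other, so unlike numbers had to give 0.211 and 0.288. In crypt, unlike numbers gave -0.644 to 0.621, the highest between ileum crypt 1 and jejunum crypt 2. A replicate block gave 5 called ABC genes over the populations, 2 in LGR5, 14 between LGR5 and crypt, 15 between CD166 and crypt and 3 between CD166 and LGR5. It changed which genes were called: Abcb6 and Abcf3 in LGR5 and Abcb10, Abcc6 and Abcc10 in CD166 were lost. Abcd2 and Abcg1 in LGR5, Abca7 and Abcd2 in CD166, and Abcc4 between regions (over the populations and in LGR5) were gained. With crossed numbers in LGR5 and CD166, chosen after seeing the data, the replicate block gave 6, 3, 13, 16 and 3.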

Other observations

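ABC genes outside the symbol rule showed patterns of their own. Cftr, the chloride channel of the crypt epithelium, was at 266, 264 and 276 CPM in ileal crypt libraries, 257, 96.9 and 196 CPM in jejunal ones, 409 and 260.0 CPM in ileum LGR5, and 414 and 407 CPM in jejunum LGR5. It was higher in LGR5 than in crypt (log2 difference 0.74 ± 0.23 SE, edgeR adjusted p = 0.0331), and ileum LGR5 2 lay within the crypt range. Tap2, a subunit of the peptide pump of antigen presentation, was at 27.97 to 95.8 CPM in crypt and 22.7 to 35.7 CPM in sorted libraries. Tap2 was lower in LGR5 (-1.14 ± 0.25, adjusted p = 0.00688) and in CD166 (-1.0 ± 0.25, adjusted p = 0.0124). Its highest libraries were jejunum crypt 2 and jejunum crypt 3, and the next was ileum crypt 1. Of 5 peptide loading genes, B2m was lower in both sorted populations and Tapbp in LGR5. Tap1, the other subunit, was highest in the same lymphocyte-rich libraries, jejunum crypt 2 (121 CPM) and ileum crypt 1 (89.3 CPM).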
